A study of Mus musculus with 4 samples.

Results

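The genes described here are those of the potassium, sodium, calcium and HCN channel families that were measured in embryonic mouse hearts, with and without the histone deacetylase gene Hdac3. They were taken by gene symbol, as every symbol that begins with Kcn, Scn followed by a number and a or b, Hcn or Cacn. A gene was kept where at least 1 of its probes was well above background on all 4 arrays in Cy5 or on all 4 in Cy3, and its brightest such probe represented it. Of 139 genes with such a symbol on the array, 85 were kept, with 112 probes of their own, among 19864 genes kept in all. Voltage-gated pores, counting HCN channels, made up 41 of the 85. The other 44 were inward rectifiers, two-pore and calcium- or sodium-activated potassium channels, auxiliary subunits, and Kcnq1ot1, a long non-coding RNA.

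The hearts were taken at embryonic day 9.5 from Nkx2.5Cre; Hdac3f/f mutants and from littermate Hdac3f/f controls, all on a mixed CD1/B6/129 background. Cre driven by Nkx2.5 deletes the floxed alleles in cells of the cardiac lineage, so blood and other cells of the pool that never express Nkx2.5 keep them. Every array of the 4, in 2 colours, compared 3 pooled mutant hearts with 3 pooled control hearts, and the 4 pairs are independent replicates per the labels. Stem cells appear in the description field of replicates 2, 3 and 4, against hearts in every other field.

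The heart at this stage is a looping tube that already beats. In muscle cells of the heart, sodium channels carry the fast upstroke of the action potential, calcium channels hold the plateau and start contraction, and potassium channels bring the membrane back to rest. HCN channels carry the inward pacemaker current. Each pore protein works with auxiliary subunits that set how much of it reaches the membrane and how fast it opens and closes.

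The direction of the ratios had 2 possible readings, and most of what follows depends on which is used. By the labels, Cy5 holds the mutant RNA throughout. The authors' columns, headed as mutant over wild type on a log2 scale, followed the scanner ratio of Cy5 to Cy3 for arrays 1 and 2, with r = 0.932 and 0.940 over bright probes. For arrays 3 and 4 they ran the opposite way, with r = -0.992 and -0.951. Values below are from the deposited columns unless said otherwise, and the reading as labelled, which turns the sign of arrays 3 and 4 and so is Cy5 over Cy3 on every array, is given beside them for the named genes. Over 19838 genes with a value on all arrays, deposited columns 1 and 4 correlated at r = -0.432 and columns 1 and 2 at r = 0.614, so the direction is not settled by the data alone. Hdac3 itself had log2 ratios of -0.22, -0.50, -0.52 and -1.15, all below 0, with a mean of -0.60 ± 0.39 (SD, n = 4; adjusted p = 0.624) by the deposited columns and a mean of 0.24 as labelled. Where the Hdac3 probe lies relative to the floxed part was not known.

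The pools carried the RNA of heart muscle. All 14 cardiomyocyte markers on the list passed the filter, and their summed processed signal was 930000 to 1260000 in mutant pools and 831000 to 1300000 in control pools. Of 8 markers of pluripotent cells, 5 passed, while Pou5f1 and Dppa3 were above background on no array. The summed signal of these 8 was 1640 to 4490 in mutant pools and 1580 to 2200 in control pools. In each channel 66.6% to 71.2% of probes exceeded background, and no spot was saturated. Of the 85 channel genes, 79 were above background in all 8 channels, where the filter had already asked for all 4 arrays in 1 dye. Over all genes, 18950 of the 19864 kept had a probe above background in both dyes on all 4 arrays. A ratio in such pools cannot tell fewer cells of a type from less RNA per cell.

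Several genes of cardiac channels did not pass the filter. Hcn4, the main pacemaker channel of the sinus node, was above background in 0 of 8 channels, as were Kcnip2, a partner of the Kcnd channels, and Kcnj8, a pore of the ATP-sensitive channel of vessels. Cacna1c, the pore of the main L-type calcium channel of the heart, was above background in 2 of 4 mutant pools and in 3 of 4 control pools, and so missed the filter. Kcne1, the partner of Kcnq1, Kcnj2, the main inward rectifier of ventricular muscle, and Kcnk2, a stretch-sensitive channel, each reached it in 1 channel, and Kcnj3, the partner of Kcnj5, in 2 mutant and 3 control pools. Of 31 genes of cardiac currents on a list, 23 passed the filter. Those that missed it had 1 probe each, apart from Kcnj3 with 2. A probe that reads poorly and a transcript that is absent cannot be told apart here, and no other stage was measured. Of all 54 pattern genes that did not pass, 32 had no probe above background on any array.

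Across the channel genes as a whole, no shift to one side was seen by the deposited columns. With limma and Benjamini-Hochberg adjustment over all 19864 genes, 0 of the 85 passed an adjusted p of 0.05 in either direction, where the background was 0% higher and 0% lower. The smallest adjusted p was 0.516 among the channel genes and 0.353 among all genes. At an unadjusted p below 0.05, 6 channel genes were above 0 (7.06%, against 3.64% of all genes) and 7 were below 0 (8.24%, against 4.32%). The mean was above 0 for 45 (52.9%, against 53.9%) and below 0 for 40, and as labelled also for 45 (52.9%, against 50%). Their median was 0.02, against 0.01 over all genes, the range was -0.60 to 0.69, and 36 lay within 0.1 of 0.

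A single sign on all 4 arrays was the pattern of 22 channel genes, among them Kcna5, Kcnj5 and Kcne1l. The ratio was above 0 on all 4 arrays for 14 (16.5%, against 9.9% of all genes) and below 0 on all 4 for 8 (9.41%, against 9.46%). As labelled, the counts were 14 (16.5%, against 13.9%) and 5 (5.88%, against 13.9%). An exact sign test over 4 arrays cannot give a two-sided p below 0.125, so a single sign is a description of these arrays.

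**Figure D1:**
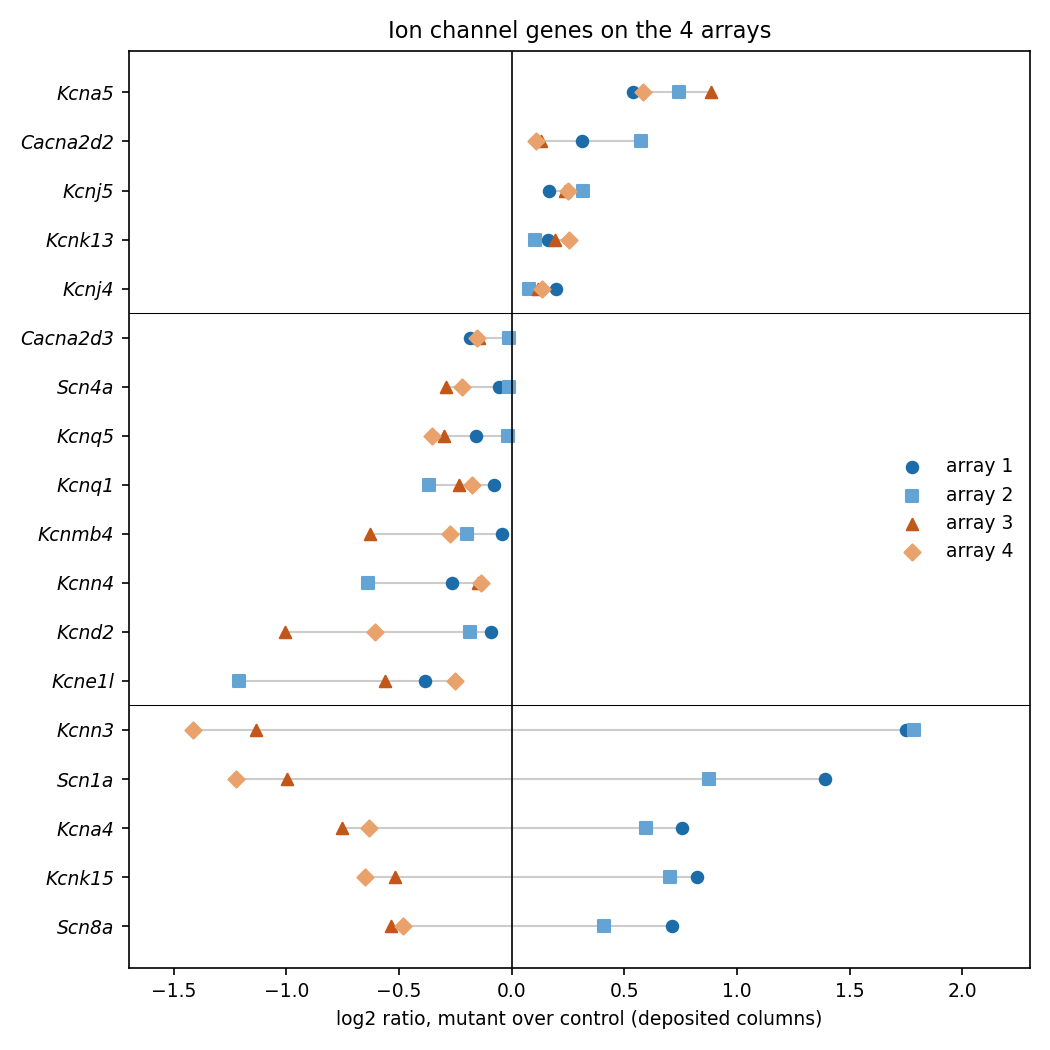
Log2 ratio of mutant over control by the deposited columns on each of the 4 arrays (symbols), with a grey line over the range. The upper block holds 5 genes of small p with all arrays above 0, the middle block 8 with all arrays below 0, and the lower block the 5 genes past the threshold as labelled, whose ratios were above 0 on arrays 1 and 2 and below 0 on arrays 3 and 4.

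Among the voltage-gated potassium pores, Kcna5 had the highest mean ratio of the 85 genes. Kcna5 encodes the pore of the ultrarapid delayed rectifier, an atrial repolarising current. It is read by a pair of probes on the minus strand of chromosome 6, shown because they gave the same sign and different sizes. The one used lies at chr6:126482573-126482632 (mm9), of which the first 30 bases are printed. The other, at chr6:126483373-126483432 (mm9), starts 800 bases away on the chromosome and ends on the stop codon, in capitals. Exon and UTR boundaries were not annotated here for these or other probes.
Kcna5, probe used: ggcttttgagaattcattcttttcattttg
Kcna5, other probe: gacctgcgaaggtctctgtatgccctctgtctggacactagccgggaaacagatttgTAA

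On the probe used, Kcna5 had processed signals of 273, 335, 639 and 578 in mutant pools on arrays 1 to 4, against 177, 190, 326 and 376 in control pools. The mutant pool was the brighter on every array, with the mutant in Cy5 on arrays 1 and 2 and in Cy3 on arrays 3 and 4 by this reading. The log2 ratios were 0.54, 0.74, 0.89 and 0.58, with a mean of 0.69 ± 0.16 (SD, n = 4), a fold of 1.61, and an adjusted p of 0.516. The other probe read 0.32, 0.31, 0.26 and 0.12, with a mean of 0.25. Both probes were thus above 0 on all 4 arrays. The mean of the pair was 0.47, with an adjusted p of 0.556 by limma. On arrays 1 and 2 alone, where labels and columns run the same way, Kcna5 had a mean of 0.64 and an adjusted p of 0.040 by limma. The mutant is in Cy5 on both of these arrays, so dye and genotype cannot be told apart there. In that setting 334 genes were called higher and 62 lower. Those called higher included Kcnn3, Scn1a, Kcna4 and Kcnk15, which were brighter in Cy5 on every array. As labelled over all arrays, the mean of Kcna5 was -0.05.

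The other Kv pores of the heart lay closer to 0. Kcnd2, a pore of the fast transient outward current, had ratios of -0.09, -0.19, -1.01 and -0.61 and a mean of -0.47 ± 0.42 (SD, n = 4; adjusted p = 0.624), the lowest of the class, against 0.33 as labelled. Its sister Kcnd3 had a mean of 0.09 ± 0.04, with ratios of 0.04 to 0.14, and 0.02 as labelled. Kcnq1, the pore of the slow delayed rectifier, read -0.08, -0.37, -0.23 and -0.18, with a mean of -0.21 ± 0.12 (SD, n = 4; adjusted p = 0.624) and -0.01 as labelled. A second Kcnq1 probe, shifted by 9 bases and so no independent reading, had a mean of -0.13. Kcnh2, the pore of the rapid delayed rectifier, averaged 0.15 ± 0.21, with array 1 below 0, and -0.08 as labelled.

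Kcnq5, a pore of the M-current of neurons, had a mean of -0.21 and was below 0 on all 4 arrays, against a mean of 0.12 as labelled. Of the 25 Kv pores kept, of 40 on the array, 15 means were above 0 and their median was 0.09. Kcnf1 and Kcnh7, with means of -0.24 each, had second probes of opposite sign, at 0.04 and 0.02. As labelled, the means of the probes used were 0.29 for Kcnf1 and 0.23 for Kcnh7.

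Of the Kv auxiliary subunits, Kcne1l stood lowest. Kcne1l, now called Kcne5, is an X-linked small membrane protein that dampens currents through Kcnq1. Its processed signals were 391, 214, 164 and 227 in mutant pools, against 501, 517, 253 and 269 in control pools, the mutant pool being dimmer on all 4 arrays. The ratios were -0.39, -1.21, -0.56 and -0.25, with a mean of -0.60 ± 0.42 (SD, n = 4; adjusted p = 0.624), against -0.20 as labelled. Without replicate 2, which had the lowest ratio, the mean was -0.40. A second probe read -0.45, -0.68, -0.31 and 0.01, so array 4 did not share the sign there. The other 6 auxiliary subunits, of 7 kept and 13 on the array, had means of -0.05 to 0.12, with Kcne3 the highest, at 0.15 as labelled.

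Among the 7 inward rectifiers kept, of 15 on the array, 4 had a mean above 0, and Kcnj5 had the highest. Kcnj5 is a subunit of the acetylcholine-activated channel through which the vagus slows the atria and pacemaker. Its processed signals were 4850, 5770, 7970 and 8480 in mutant pools, against 4150, 4570, 6920 and 7640 in control pools. The ratios were 0.17, 0.32, 0.24 and 0.25, with a mean of 0.24 ± 0.06 (SD, n = 4; adjusted p = 0.624) and a fold of 1.18, and -0.00025 as labelled. The mutant pool was the brighter on each array by a smaller log2 difference than for Kcna5. Kcnj4, a strong inward rectifier, averaged 0.13 ± 0.05, while Kcnj11, a pore of the ATP-sensitive channel, and Kcnj12, another strong inward rectifier, averaged -0.11 each with arrays on both sides of 0. As labelled, the means were 0.006 for Kcnj4, -0.24 for Kcnj11 and -0.05 for Kcnj12.

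Kcnj13, a weak inward rectifier of epithelia, depended on 1 array. Its ratios were 0.14, 0.24, -1.55 and 0.16, with a mean of -0.25 ± 0.87 (SD, n = 4; adjusted p = 0.822), 0.18 without replicate 3, and 0.44 as labelled. In array 3 the mutant pool had a signal of 12.8, which was not well above background, against 105 in the control pool. A second Kcnj13 probe had 4.85 in the mutant pool of that array, also not well above background, against 35.2 in its control pool. Both probes read low in that pool, so the size of the ratio there rests on signals near background.

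The two-pore channels, which carry the background current that holds the resting potential, spread about evenly to both sides of 0. Of the 10 kept, of 14 on the array, 5 means were above 0 and their median was 0.04. Kcnk3, an acid-sensitive channel of the atria, had ratios of -0.38, -0.59, -0.35 and 0.11, with a mean of -0.30 ± 0.29 (SD, n = 4; adjusted p = 0.624), the lowest of the class, and -0.18 as labelled. Without replicate 2 it was -0.21, and without replicate 4 it was -0.44. Kcnk13, a channel inhibited by halothane, had ratios of 0.10 to 0.25 and a mean of 0.18 ± 0.06, and Kcnk4, a mechanosensitive channel, had the same mean with array 4 below 0. As labelled, Kcnk13 averaged -0.05 and Kcnk4 averaged 0.00025.

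Among calcium- and sodium-activated potassium channels, 2 of the 6 kept had a mean above 0. Kcnn4, the intermediate-conductance channel of blood and proliferating cells, had ratios of -0.26, -0.64, -0.15 and -0.14 and a mean of -0.30 ± 0.23 (SD, n = 4; adjusted p = 0.624), and -0.15 as labelled. By the deposited columns, erythroid markers lay on the same side, all 7 of 7 having a mean below 0, with a median of -0.30. Their summed signal was 222000 to 362000 in mutant pools, against 331000 to 462000 in control pools. As labelled, 4 of the 7 markers had a mean above 0, with a median of 0.08, and so did not share the side of Kcnn4. Their part in the Kcnn4 ratio was not tested. Kcnmb4, a beta subunit of the large-conductance channel, was below 0 on all 4 arrays with a mean of -0.29, against 0.16 as labelled, and its second probe averaged -0.44. That probe read -0.40, -0.36, -1.01 and 0.03, so array 4 did not share the sign there.

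Among the sodium channel genes, Scn3b rested on array 3. Scn3b, a beta subunit that raises the sodium current, had processed signals of 525, 414, 2370 and 393 in mutant pools, against 446, 446, 732 and 330 in control pools. The mutant pool was far brighter on array 3, slightly brighter on arrays 1 and 4 and dimmer on array 2. The ratios were 0.25, -0.10, 1.65 and 0.22, with a mean of 0.50 ± 0.78 (SD, n = 4; adjusted p = 0.654), 0.12 without replicate 3, and -0.43 as labelled.

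Other sodium channel genes had means nearer to 0 by the deposited columns. Scn4a, the pore of skeletal muscle, averaged -0.15 ± 0.13 with all 4 arrays below 0, against 0.11 as labelled. Scn4b, a beta subunit of resurgent current in neurons, read -0.56, -0.24, 0.57 and 0.32, which is a mean of 0.02. As labelled, that is -0.42 ± 0.17 (SD, n = 4; adjusted p = 0.085 by limma), with all arrays below 0. The 4 beta subunits had 2 means above 0, and the 7 Nav pores had 4.

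Of the 4 HCN genes on the array, 2 were kept, among them Hcn2, a pacemaker channel also found in working heart muscle. Hcn2 had processed signals of 9690, 7980, 17200 and 9490 in mutant pools, against 9000, 9150, 9800 and 8040 in control pools. Array 2 went the other way and array 3 was again the highest, at ratios of 0.05, -0.26, 0.90 and 0.28. Their average was 0.24 ± 0.49 (SD, n = 4; adjusted p = 0.713), 0.02 without replicate 3, and -0.35 as labelled. A second Hcn2 probe averaged 0.23, with 4 arrays above 0.

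Calcium channel pores lay close to 0 by the deposited columns. Of the 7 kept, of 10 on the array, 4 had a mean above 0, between -0.14 for Cacna1s, the skeletal muscle L-type pore, and 0.17 for Cacna1a, a pore of neuronal channels. As labelled, Cacna1s averaged -0.12 and Cacna1a -0.08. Cacna1d, an L-type pore used in pacemaker cells, averaged -0.01 ± 0.10, and 0.02 as labelled. Cacna1g, a T-type pore, averaged 0.07 ± 0.08, against -0.01 as labelled, and its second probe averaged -0.04. Cacna1h, the other T-type pore of the embryonic heart, read -0.39, -0.51, 0.24 and 0.40, a mean of -0.07. As labelled, Cacna1h averaged -0.38 ± 0.11 (SD, n = 4; adjusted p = 0.070 by limma), but its 2 other probes averaged 0.02 and -0.05 as labelled.

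The auxiliary subunits of calcium channels were wider apart. Cacna2d2, an alpha2delta subunit that brings pores to the membrane, had ratios of 0.31, 0.57, 0.13 and 0.11, with a mean of 0.28 ± 0.22 (SD, n = 4; adjusted p = 0.624), 0.16 as labelled, and a second probe at 0.23. Cacna2d1, its better-known cardiac relative, averaged -0.24 ± 0.30, the same as labelled, with a second probe at -0.33. Cacna2d3 averaged -0.12 with all 4 arrays below 0, against 0.02 as labelled. Cacng7, of the gamma family, was the highest of the class at 0.32 ± 0.32, with array 1 below 0, against -0.02 as labelled.

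Cacnb2, the main beta subunit of the cardiac L-type channel, had probes that disagreed. The probe used, at chr2:14907912-14907971 (mm9), read -0.18, 0.15, -1.22 and -0.35, with a mean of -0.40 ± 0.59 (SD, n = 4; adjusted p = 0.647), -0.13 without replicate 3, and 0.39 as labelled. A second probe, upstream on the same strand and split over chr2:14882385-14885558, read 0.08, 0.05, 1.39 and 0.03, and the remaining probe averaged 0.03. On array 3 these probes of one gene stood on opposite sides of 0. In all, 25 of the 85 genes had several probes past the filter, and the probes of 6 had means of opposite sign (Cacna1g, Cacna1h, Cacnb2, Kcnf1, Kcnh7 and Kcnq1ot1), and of 8 as labelled.

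Kcnq1ot1, the non-coding RNA made from within Kcnq1 on the paternal chromosome, read 0.13, -0.07, 0.24 and -0.47, with a mean of -0.04, against 0.08 as labelled. Its second probe averaged 0.11. The 4 arrays lay on both sides of 0 on each probe, unlike those of Kcnq1.

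**Figure D2:**
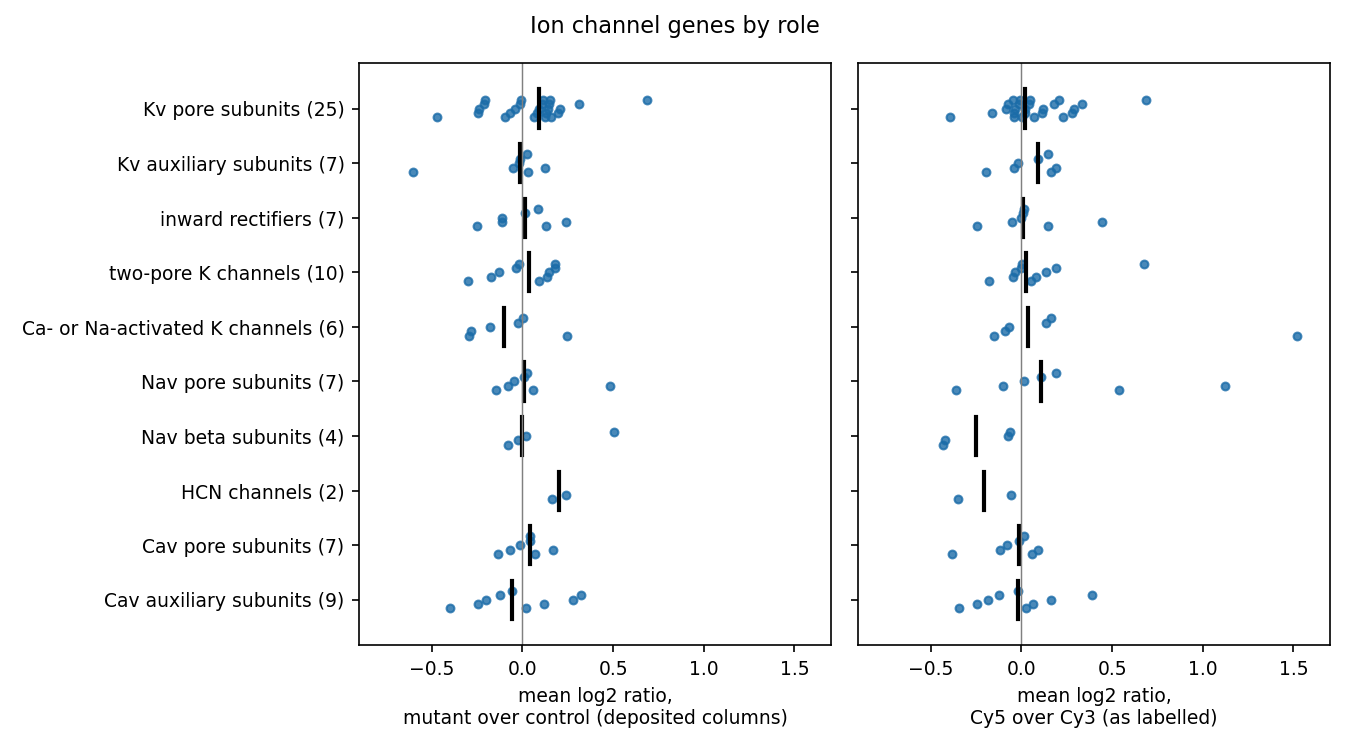
Mean log2 ratio of each channel gene by role, with the number kept in brackets. The left panel uses the deposited columns and the right panel Cy5 over Cy3 as labelled. Points are genes and the black bar is the class median, which ran from -0.10 to 0.20 at left and from -0.25 to 0.11 at right.

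The channel genes that passed the threshold as labelled were above 0 on all 4 arrays in that reading. Turning arrays 3 and 4 alone fixes that none of them has one sign by the deposited columns. As labelled, 5 channel genes had an adjusted p below 0.05 by limma with a mean above 0 (5.88%, against 1.72% of all genes) and 0 with a mean below 0 (against 0.126%). They were Kcnn3, Scn1a, Kcna4, Kcnk15 and Scn8a. The Scn1a probe used passed the filter only through Cy5, where it was the brighter, and without this gene the count was 4 of 84 (4.76%). Leaving out replicate 1 or replicate 4 left 0 of the 5 past the threshold, and leaving out replicate 2 left Scn1a alone. Kcna5, Kcnj5 and Kcne1l, with one sign by the deposited columns, are by the same turn split between arrays as labelled and were not called. At an unadjusted p below 0.05, 11 channel genes were above 0 (12.9%, against 8.45% of all genes) and 6 were below 0 (7.06%, against 7.68%).

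**Figure D3:**
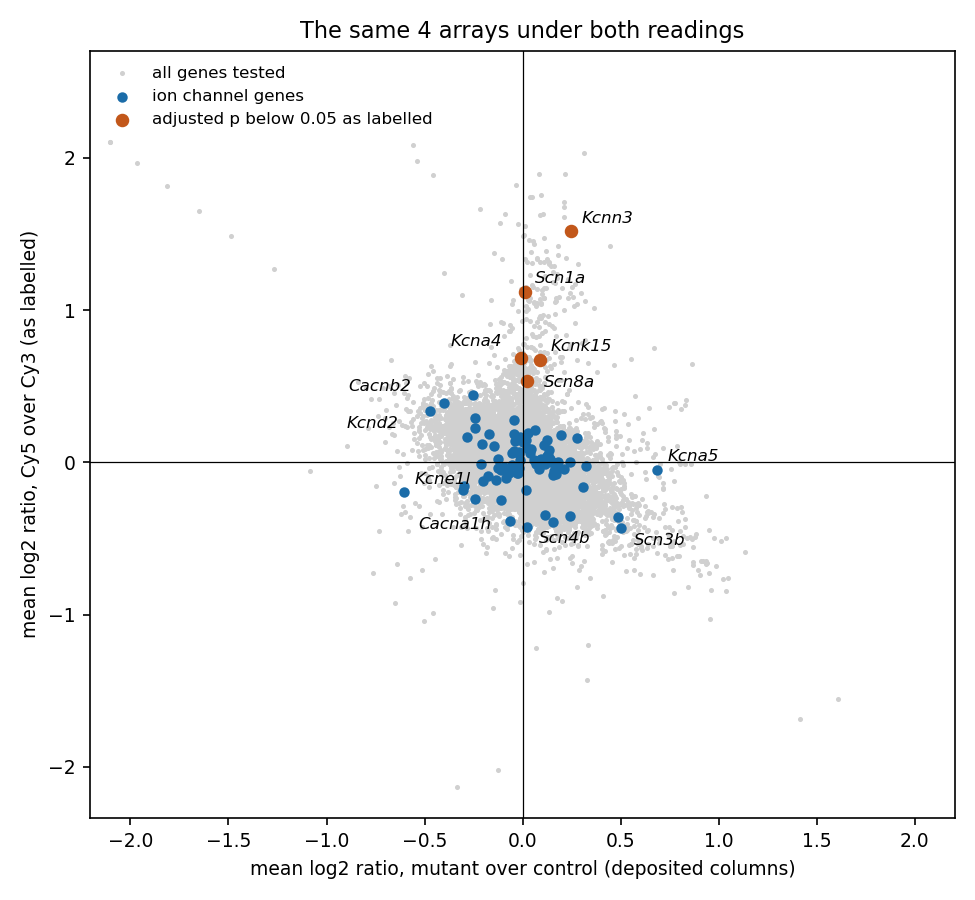
Mean log2 ratio over the 4 arrays by the deposited columns (horizontal) and as Cy5 over Cy3 (vertical), for all 19864 genes in grey and the 85 channel genes in blue. The 5 in orange passed an adjusted p of 0.05 as labelled and lie between -0.01 and 0.25 on the horizontal axis, while Kcna5, at 0.69 on the horizontal axis, lies at -0.05 on the vertical one. By arithmetic, a gene with one sign on all arrays in either reading has a smaller absolute mean in the other.

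Kcnn3, a small-conductance calcium-activated potassium channel, showed the pattern most plainly. By the deposited columns its processed signals were 88.3, 87.3, 24.8 and 20.4 in mutant pools, against 14.4, 13.8, 88.8 and 86.4 in control pools. The bright values, 86.4 to 88.8, are all the Cy5 channel, whichever genotype the columns place there. The ratios were 1.75, 1.78, -1.14 and -1.41, so that the mean was 0.25 by the deposited columns (adjusted p = 0.923) and 1.52 ± 0.31 as labelled (SD, n = 4; adjusted p = 0.0083), a fold of 2.87. The size as labelled depended on the processing, as given in the last section. Its other probe, at signals of 1.59 to 3.01, was above background on no array.

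Scn1a, a sodium channel pore of neurons, followed the dye in the same way near the detection limit. Its probe had 38.9, 35.7, 3.1 and 1.78 in mutant pools, against 4.06, 11.6, 38.4 and 33.4 in control pools. It was well above background on all 4 arrays in Cy5 and on 1 of 4 in Cy3, so the filter itself favoured a high Cy5 value. The mean was 0.01 by the deposited columns and 1.12 ± 0.23 as labelled (SD, n = 4), given as a description only. A second Scn1a probe, above background on all 4 arrays in Cy3 and on 0 in Cy5, averaged 0.03 and, as labelled, -0.06.

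Kcna4, a pore of the slow transient outward current, was a bright gene with the same order of channels. Its signals were 2100, 2280, 2240 and 2710 in mutant pools, against 1230, 1490, 3770 and 4140 in control pools. Cy5 was the brighter channel on each array. The ratios were 0.76, 0.60, -0.75 and -0.63, with a mean of -0.01 by the deposited columns and 0.69 ± 0.08 as labelled (SD, n = 4; adjusted p = 0.012). Scn8a, a neuronal sodium channel pore, averaged 0.02, and 0.54 ± 0.13 as labelled (adjusted p = 0.029), while Kcnk15, a two-pore channel, averaged 0.09, and 0.67 ± 0.13 as labelled (adjusted p = 0.016). The other probes of Scn8a and Kcnk15 missed the filter.

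**Figure D4:**
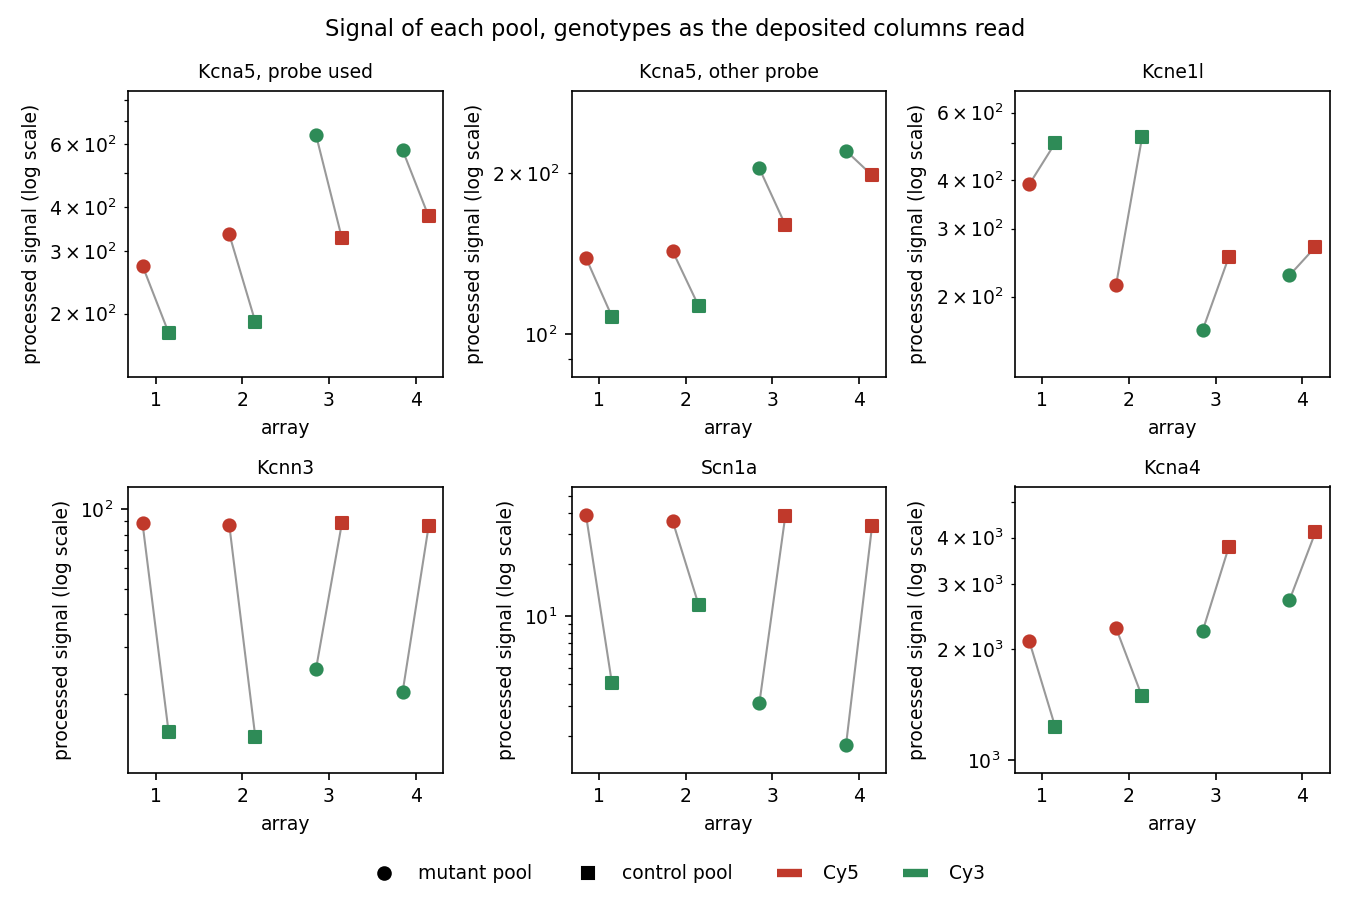
Processed signal (log scale) of the mutant pool (circle) and the control pool (square) on arrays 1 to 4, with genotypes as the deposited columns read and the dye as colour. Kcna5 was brighter in the mutant pool in either dye and Kcne1l dimmer, while Kcnn3, Scn1a and Kcna4 were brighter in Cy5 on all 4 arrays.

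The probes of Kcna4 and Scn8a share a run of TG pairs, which is why they are shown, as stretches of 30 bases with the run in capitals. The Kcna4 stretch lies at chr2:107138229-107138258 and the Scn8a stretch at chr15:100875712-100875741 (mm9, plus strand). The Kcnk15 probe, at chr2:163684551-163684610 on the plus strand with its stop codon in capitals, and the first 30 bases of the Kcnn3 probe, at chr3:89476303-89476332 on the plus strand, and of the Scn1a probe, at chr2:66111052-66111081 on the minus strand, hold no such run.
Kcna4: ttttgtgtaTGTGTGTGTGTGtctgtgtgt
Scn8a: acatgtaTGTGTGTGTGTGTGTGaagaatg
Kcnk15: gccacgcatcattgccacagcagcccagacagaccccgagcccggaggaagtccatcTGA
Kcnn3: gcatcttgcctctgtactgcttgctatttt
Scn1a: taaacgaaaactctattacggagaaaactg

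The repeat was searched in the probes of all genes, as the letters TGTGTGTG on the probe strand, after the values of Kcna4 and Scn8a had been seen. Of the 19864 genes, 208 (1.05%) had it in their probe. Their probes had a median Cy5 over Cy3 of 0.46, against -0.002 for genes with neither this run nor its complement CACACACA, and 159 of the 208 (76.4%) were above 0 on all 4 arrays in Cy5 over Cy3, against 13.9% of all genes. An adjusted p below 0.05 as labelled was reached by 97 of the 208 (46.6%, against 1.72% of all genes). That count was 1 without replicate 1, 0 without replicate 2, 78 without replicate 3 and 0 without replicate 4, where the count over all genes, in either direction, was 44, 49, 394 and 0, against 366 with all arrays. The complement run, in 120 genes, of which 1 had both runs, and in 0 channel genes, had a median of 0.15. By the deposited columns the TG probes had a median of -0.03. Kcna4 and Scn8a were the only 2 channel genes with the run. With the dye and the genotype in one fixed pairing as labelled, a dye difference and a genotype difference cannot be told apart for these 5 genes.

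**Figure D5:**
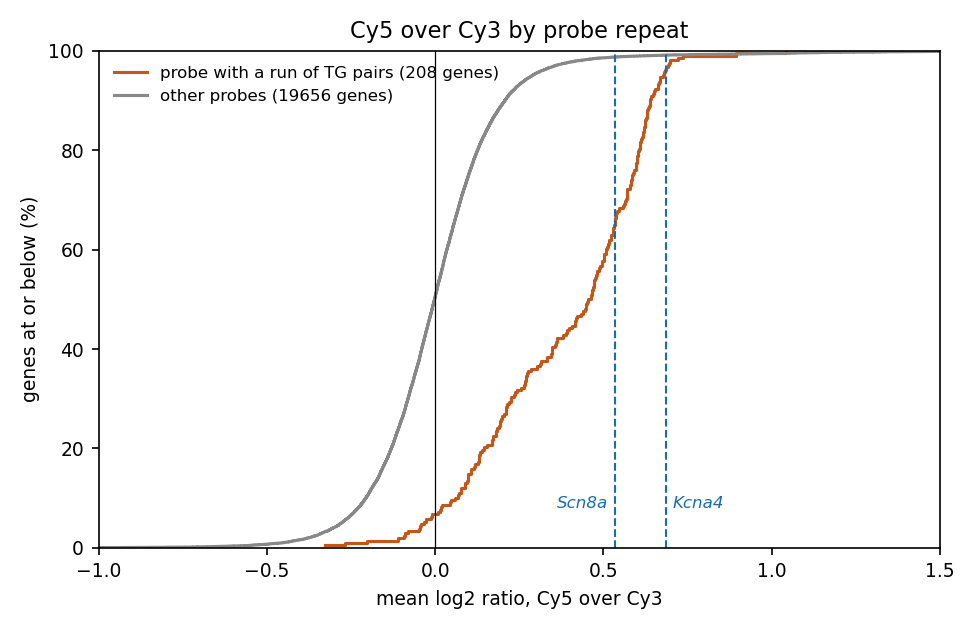
Share of genes at or below each mean log2 ratio of Cy5 over Cy3, for the 208 genes whose probe holds a run of TG pairs (orange) and for the other genes (grey), with the values of Kcna4 and Scn8a as dashed lines. The orange curve lies to the right, with a median of 0.46.

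Markers of several other cell types had medians away from 0 by the deposited columns. Those of the epicardium had a median of -0.26, with 0 of 6 above 0 and a summed signal of 3490 to 5610 in mutant pools, against 4400 to 5710 in control pools. Those of endothelium and endocardium had a median of 0.22, with 5 of 8 above 0 and sums of 7480 to 23500 in mutant pools, against 6480 to 10400 in control pools. The medians of this list were 0.14, 0.13, 0.42 and 0.15 on arrays 1 to 4, so array 3 was the highest. Those of endoderm had a median of 0.30, with 4 of the 4 kept above 0 and sums of 163 to 332 in mutant pools, against 89.4 to 148 in control pools, while Apoa1 was above background on no array. Cell type markers were also read by dye. In that reading the median was -0.03 for the epicardium (3 of 6 above 0), -0.03 for endothelium and endocardium (3 of 8) and 0.17 for endoderm (3 of 4). As labelled, 14 of 14 cardiomyocyte markers had a mean above 0, with a median of 0.22, against 6 of 14 and -0.01 by the deposited columns. Of the neuronal markers, 12 of 15 passed the filter, with a median of 0.05 as labelled and -0.01 by the deposited columns, and their summed signals were 9110 to 10700 in mutant pools, against 8360 to 11300 in control pools. The part of these markers in the channel ratios was not tested.

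Genes that work with the channels had medians close to that of all genes by the deposited columns, and 0 passed the adjusted threshold. Of 32 channel partners and regulators such as ankyrins, calmodulins and G proteins, 30 were kept, with a median of 0.04, 1 above 0 (3.33%, against 3.64% of all genes) and 2 below 0 (6.67%, against 4.32%) at an unadjusted p below 0.05. Of 65 genes of other channel families, such as Trp channels, chloride channels and ryanodine receptors, 47 were kept, with a median of 0.03, 1 above 0 (2.13%) and 0 below 0. Of 19 pacemaker and conduction genes, 18 were kept, with a median of -0.02, 2 above 0 (11.1%) and 0 below 0. The 23 genes of cardiac currents had a median of 0.02, with 3 above 0 and 3 below 0 (13.0% each), and as labelled 7 of the 23 had a mean above 0 with a median of -0.05.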

How the data were processed

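Total RNA of 4 mutant and 4 control pools was measured on 4 Agilent arrays of 2 colours, which shared 1 slide and 1 scan. The number of arrays limits the precision. The authors deposited scanner files with spot mean, background and processed intensity signals and a log10 ratio (Cy5 to Cy3). Feature Extraction was version 11.5.1.1 per the file headers and 8.5.1.1 per the submitters' processing notes. The authors also deposited a table of log2 ratios (normalization not given in the sources used here), whose column medians were -0.029, -0.017, 0.017 and 0.023. The scale and direction of each column were found against its scanner file on probes with mean signals above 2000, with slopes of 1.03, 1.01, -0.99 and -1.01.

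Table rows were matched by probe name, after 153 control rows among the 43173 rows were left out. A probe with several spots counted as above background where at least 0.5 of its spots were flagged so. Symbols are those of the files, and 7 of the 85 genes had no accession match in the RefSeq table given, which was used for names only. Probe coordinates and sequences are those of the deposited files. In R 4.3.3 with limma 3.58.1, lmFit and eBayes tested the mean of the 4 deposited ratios against 0, and p-values were adjusted over 19864 genes by Benjamini-Hochberg, with a threshold of 0.05. The method was tested on simulated data. Alternatives were normexp (offset 50) with loess, Agilent processed signals, the labelled dyes, arrays 1 and 2 only, centring, array weights, a dye term, other filters and probe rules, no replicate block, and each replicate left out.

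The channel genes and the lists were chosen with earlier results of these data known. Genes were named if they belong to the cardiac current list, were among the 8 of smallest p per direction with one sign, were highest or lowest of their role class, had disagreeing probes or had 1 array far from the others. Scn1a, Kcnk15 and Scn8a were named after their values as labelled had been seen. Some genes that these rules name are not reported here.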

Additional observations from a re-analysis of the deposited data

Results flagged for a closer look

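Of 37 named channel genes, 2 had 1 array far from the other 3, measured as the gap to the nearest array over the whole range, and about 1 in 20 groups would show this by chance. Kcnj13 had a gap of 0.946 of its range, with array 3 at -1.55 below 0.14 to 0.24 on the others. Its mutant signal on array 3 was not well above background. Kcnj12 had a gap of 0.894, with array 3 at 0.06 above -0.18 to -0.15 on the others. The array is the same in both, and array 3 had the widest spread over all genes, with an SD of 0.43, against 0.24, 0.25 and 0.28 on arrays 1, 2 and 4.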

How the results depend on the processing

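With the deposited columns limma called 0 genes, against 1581 at an unadjusted p below 0.05. Over all genes, 366 were called as labelled, 396 on arrays 1 and 2 only, 1 with array weights, and 0 to 1 with a replicate left out. Of the channel genes, 5 were called as labelled and 5 on arrays 1 and 2 only (Kcna4, Kcna5, Kcnk15, Kcnn3 and Scn1a). In both of these settings the mutant is in Cy5 on every array used. The pairing of pools is the shared array, and with no replicate block 0 genes were called and 650 had an unadjusted p below 0.05. That setting used single-channel values after normexp, loess and quantile normalization between arrays, so it differs from the deposited ratios in normalization too. Paired ratios after normexp and loess gave 1521 genes at an unadjusted p below 0.05. As labelled the mean of 22 of the 37 named genes changed sign. Of those with one sign on all arrays or past the threshold after the turn, it became 0.0245 for Cacna2d3, 0.69 for Kcna4, -0.04725 for Kcna5, 0.33 for Kcnd2, -0.00025 for Kcnj5, -0.045 for Kcnk13, 0.16 for Kcnmb4, 0.12 for Kcnq5 and 0.11 for Scn4a, and on arrays 1 and 2 only it became 0.68 for Kcna4. This follows from turning or dropping arrays 3 and 4. The mean of Kcna5 was 0.62 to 0.76 under the alternatives that keep the deposited signs and its probe used, and its adjusted p ranged from 0.04 on arrays 1 and 2 to 0.981 with no replicate block. Within the labelled reading, under settings chosen after seeing the data, normexp with loess called Kcna4, Kcnn3 and Scn8a, Agilent processed signals called all 5, leaving out replicate 3 called the 5 and Cacna1h, leaving out replicate 2 called Scn1a, and leaving out replicate 1 or 4 called 0. The median of the channel genes was -0.03 to 0.07 under all alternatives, within the spread between arrays. Of the means of single named genes under the alternatives, 526 stayed within the spread between replicates, 15 moved by more, 10 turned as listed, with Kcna4 past the threshold under both settings, and 3 passed it with the same sign (Kcna5 once and Kcnn3 under both settings). Signals near background, as for Scn1a and for Kcnj13 on array 3, limit what their ratios can show.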
